A study of Mus musculus with 15 samples.

Results

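The zinc finger genes with symbols from Zfp930 to Zfp995 were taken as every symbol of the series made of Zfp and a 3-digit number that begins with 9. There were 64 such genes among 57663 gene symbols. The series compared messenger RNA in J1 mouse embryonic stem cells grown without feeder cells, of which 2 libraries are labelled Zscan4 OE (overexpression, OE1 and OE2) and 2 are controls labelled wild type. It also compared embryos at the 2-cell stage, with 6 libraries labelled Zscan4 RNAi (knockdown by RNA interference) and 5 controls labelled wild type. Nothing in the labels says that libraries of a group came from separate cultures or separate sets of embryos, and each p-value covers only the library-to-library spread, which may be technical. No label gives the overexpression construct, the RNAi reagent, the number of clones, or how many embryos went into a library. The series title places the work around a question on Zscan4 and co-repressor complexes, and the 64 genes bear on it because many encode proteins that act through such complexes.

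Most of these genes belong to the Krüppel-associated box (KRAB) zinc finger family, whose members carry tandem zinc fingers that bind DNA and a KRAB domain that recruits the scaffold protein Trim28. Trim28 in turn brings the histone methyltransferase Setdb1, heterochromatin proteins and histone deacetylases to the bound site. In mouse stem cells and early embryos the family is best known for silencing endogenous retroviruses, and many of its mouse genes lie in tandem arrays that arose by duplication. Zscan4 is a cluster of SCAN-domain zinc finger genes transcribed at the 2-cell stage and, at any time, in few stem cells of a culture.

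Reads counted in genes numbered 21820093 to 26555027 per stem cell library and 695524 to 1432566 per embryo library. Values are the authors' normalised reads, which are gene reads divided by a size factor for each library; the 2 tables were normalised separately, so only tests within a table were made. Summed over the Zscan4 genes, OE1 and OE2 held 20005 and 19449 normalised reads, against 152 and 212 in the stem cell controls. RNAi embryos held 13.9 to 383 and control embryos 345 to 1064, with control 5 the lowest control and below the highest RNAi library. Stem cell markers (Pou5f1, Nanog, Sox2, Zfp42 and Esrrb) summed to 76020.2 to 89246 in OE cells and 64985 to 65184 in control cells, and no marker of the list was at 0. Sums in OE and control stem cells were 726 to 820 and 41.9 to 44.9 for 4 markers of the 2-cell stage. Zscan4d, itself a Zscan4 gene, made up most of the OE sum, with means of 696 and 10.4. Obox6 averaged 49.8 and 30.7, Tdpoz4 13.5 and 0.936 and Zfp352 13.3 and 1.40, none of them called. The 5 oocyte markers summed to 325 to 616 and 77.7 to 86.7. Of these, Zp3 averaged 427 and 70.9 and Bmp15 29.8 and 0, both called higher. Gdf9 averaged 12.8 and 10.8, Nlrp5 1.51 and 0.476, and Oosp1 was at 0. Sums were 83.0 to 151 and 156 to 171 for cumulus cell markers, and 10.9 to 15.5 and 8.57 to 23.4 for blood markers. Embryo libraries had all 4 markers of the 2-cell stage, with sums of 177 to 704 in RNAi and 847 to 1917 in control embryos. These sums include Zscan4d, with means of 92.9 and 266. Obox6 averaged 119 and 613, Tdpoz4 22.5 and 84.3 and Zfp352 244 and 477. The 5 oocyte markers summed to 3539 to 9521 in RNAi and 1844 to 3816 in control embryos. Bmp15 made up the largest part of the RNAi sums (means 3892 and 1192), and Zp3 alone had a lower RNAi mean (37.2 and 78.8). Cumulus cell markers summed to 0 to 8.24 in RNAi and 1.39 to 3.91 in control embryos, with 3 of 6 (Has2, Inha and Amh) at 0 in every library, and blood markers to 6.52 to 140 in RNAi and 26.8 to 68.4 in control embryos. Feeder fibroblast markers summed to 510 to 596 in OE cells and 531 to 581 in control cells, over 5 of 6 measured, and to 2.46 to 22.1 in RNAi and 2.34 to 11.7 in control embryos. Within the sums in stem cells, Col1a2 averaged 258 in OE and 53.0 in control cells and Col3a1 56.1 and 8.01, both higher (log2 fold changes 2.29 and 2.63, adjusted p 0.0209 and 0.0276), while Thy1 averaged 196 in OE and 421 in control cells and fell by 1.10 on the log2 scale (adjusted p 0.038). Whether these marker differences have a part in the results on zinc finger genes was not tested. In bulk libraries, fewer cells of a type and less RNA per cell cannot be told apart.

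The 64 genes sit on 12 mouse chromosomes (GRCm38, GENCODE vM21), and 63 are annotated as protein coding. Zfp939 is a transcribed unprocessed pseudogene. In all, 43 fall into 5 blocks of at least 3 members spaced at most 1000000 bases apart, and 21 lie outside them. The chromosome 2 block (chr2:175372436-178078476) holds 10 members, the chromosome 4 block (chr4:145510759-147848366) 16, the chromosome 7 block (chr7:42579783-43192109) 4, the chromosome 8 block (chr8:69209038-69749970) 3 and the chromosome 17 block (chr17:21567008-22867134) 10.

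Members resemble each other and other genes closely, which limits how surely a read is assigned. Of all 50-base stretches in a member's annotated transcripts, a median of 19.7% also occurred in transcripts of another gene. That share was at least 50% in 19 members and under 5% in 17. It was highest in the chromosome 2 block, with a median of 87.3%, and reached 61.2% in the chromosome 4 block, against 18.0% in the chromosome 7 block. How the authors treated reads that match several genes is not given in the sources used here, so values of members with a high share are uncertain between near-copies. In addition, 12 members overlap an exon of another gene, and strand use in counting is not given either.

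In Zscan4 OE cells, 16 members were higher than in control cells and 1 (Zfp939) was lower, out of 63 that passed a filter on low values (limma on log2 of the value plus 1, adjusted p under 0.05 over all 20888 genes tested). The background was 11.7% of all genes called higher and 11.4% called lower (23.2% in all), against 25.4% and 1.59% of the tested members. The median log2 fold change, OE minus control, was 0.81 over the tested members and -0.02 over all genes, and 49 members had a positive value. The other genes named Zfp with a number had a median of 0.18, with 57 of 326 higher and 16 lower. In 37 members both OE libraries lay above both controls and in 6 both lay below, where all genes gave 34.2% and 34.6%. No tested member passed the filter through a single group, in stem cells or in embryos. Zfp957 was not tested, with 2 reads in all 4 libraries, and neither was the second of 2 identifiers that carry the symbol Zfp935, also with 2 reads.

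The count of higher members depended on which library was used, and OE1 and OE2 were far apart for these genes. Summed over all members, OE1 and OE2 held 83496 and 41970.5 normalised reads, against 23083 and 23044 in controls. OE1 exceeded OE2 in 59 of 63 members, with a median log2 difference of 0.89, where all genes gave 9914 of 20888 and -0.01. The median SD of log2 values within a group was 0.67 in OE and 0.13 in control libraries. OE1 lay above both controls in 55 members and below both in 7, and OE2 above both in 38 and below both in 20. The share of all genes is not given for a single OE library. With both OE libraries together it was 34.2% above both controls and 34.6% below. A fit without OE1 or OE2 leaves 1 OE library and takes its spread from the 2 controls alone. Calls from such fits take no account of the OE spread. Without control 1 or without control 2, no member and no gene of any kind was called by limma, while 3617 and 3646 genes, 7 and 8 of them members, had an unadjusted p under 0.05. In those 2 fits the lone control was assumed to vary like the OE libraries.

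**Figure D1:**
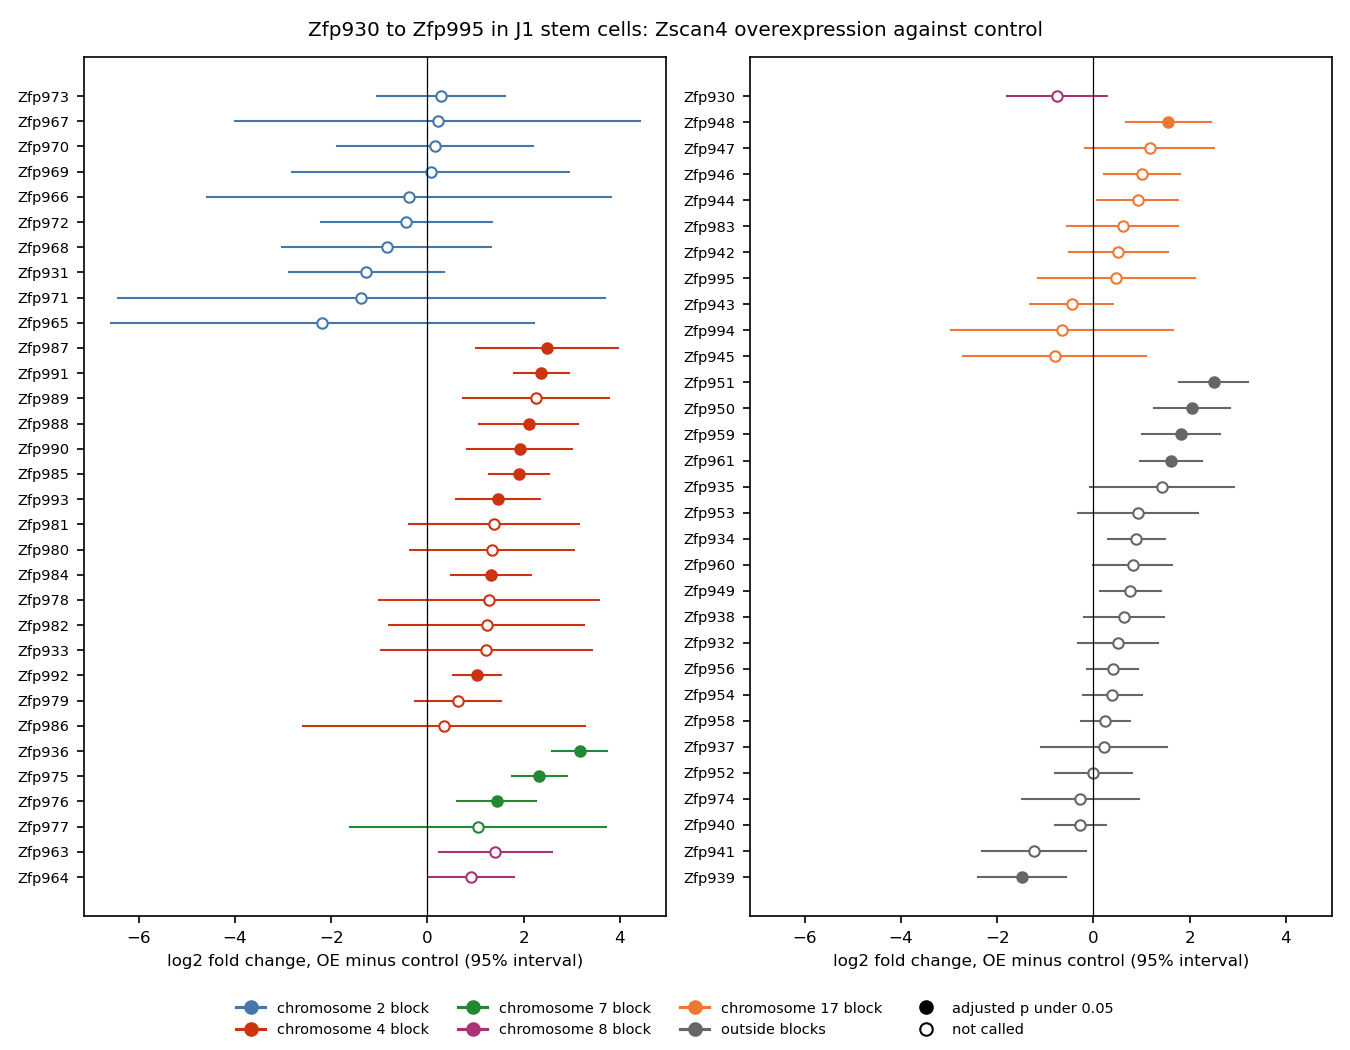
Log2 fold change of each tested member in J1 stem cells, Zscan4 OE minus control, with its 95% interval, coloured by genomic block; filled points have an adjusted p under 0.05. All 16 members of the chromosome 4 block lie to the right of 0, while the 10 members of the chromosome 2 block lie on both sides with wide intervals.

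In the chromosome 4 block, a region whose zinc finger genes are known in mouse for restraining retroviral elements, all 16 members had a positive log2 fold change, with a median of 1.37, and 8 were called higher. The number called was 13 by DESeq2, 5 with no filter and 4 with quantile normalisation. All genes called higher in these fits numbered 2906, 2034 and 2141. With no filter, limma lost the calls of Zfp984, Zfp987 and Zfp993. Quantile normalisation lost those and that of Zfp990 (adjusted p 0.0503 to 0.064 over both settings). OE1 lay above both controls in all 16 and OE2 in 13, and OE2 lay below both in 1, with no share of all genes given for a single OE library. Both OE libraries lay above both controls in 13, against 34.2% of all genes. The 45 other tested genes of the same region had a median of 1.51, with 13 called higher and 0 lower. All genes of chromosome 4 outside the list had a median of 0.08.

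The block also holds the most abundant members. Per kilobase of annotated exon, control levels were highest for Zfp978 (724 normalised reads per kilobase), Zfp981 (607), Zfp990 (497), Zfp993 (433) and Zfp984 (424), against a median of 49.6 over all member rows. The median control level per kilobase was 322 in the block. In these leading members, 29.1% (Zfp990) to 86.8% (Zfp993) of the 50-base stretches occur in other genes, so their order is uncertain between near-copies.

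Zfp990 had 9666 and 4463 normalised reads in OE cells and 1793 and 1686 in control cells. Both OE libraries stood above both controls, and OE1 was far above OE2. Its mean was 7065 ± 3679 in OE cells and 1739.7 ± 76.0 in control cells (SD, n = 2 each), a log2 fold change of 1.92 (SE 0.41, adjusted p 0.0389).

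Zfp991, Zfp992 and Zfp993 share much of their sequence, and all 3 were called higher. Zfp991 had 5516 and 4029.5 normalised reads in OE cells and 908 and 916 in control cells, a log2 fold change of 2.37 (SE 0.21, adjusted p 0.0123). Zfp992 had 3435 and 2757 in OE cells and 1526 and 1491 in control cells, a log2 fold change of 1.03 (SE 0.18, adjusted p 0.0288). Zfp993 was the block's exception in that OE1, at 1149, lay below OE2, at 2027, and both lay above the controls at 517 and 587 (log2 fold change 1.47, SE 0.32, adjusted p 0.0427). Of their 50-base stretches, 82.2% in Zfp991, 43.0% in Zfp992 and 86.8% in Zfp993 occur in other genes, so the 3 values are not independent of each other.

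A second group linked by shared stretches runs from Zfp986 to Zfp990, and 3 of its 5 members, Zfp987, Zfp988 and Zfp990, were called. Its pairs share 6.87% to 66.3% of the stretches of the smaller member. Zfp987 had 3915 and 1329 normalised reads in OE cells and 400.0 and 409 in control cells, a log2 fold change of 2.49 (SE 0.55, adjusted p 0.0424). Zfp988 had 2421 and 1186 in OE cells and 382 and 404 in control cells, a log2 fold change of 2.11 (SE 0.38, adjusted p 0.0297). In each of them both OE libraries stood above both controls. Zfp989 had 1173 and 395 in OE cells and 137 and 146 in control cells, without overlap, and its log2 fold change of 2.26 missed the threshold at an adjusted p of 0.0544. With all libraries kept, Zfp989 passed by edgeR, DESeq2, voom, with a mean of at least 10 and with a term for replicate number (adjusted p 8.06e-06 to 0.0399). The replicate term pairs OE and control libraries that share only a number. Zfp989 missed in the other alternatives that kept all libraries (0.0508 to 0.0695). Its log2 fold change was 1.47 without OE1 and 3.04 without OE2. Zfp986 had 546 and 60.8 in OE cells and 160.0 and 128 in control cells, so OE2 lay below both controls.

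The third such group, Zfp978 to Zfp981, had large means and no call in the main limma fit. Its pairs share 4.52% to 42.4% of the stretches of the smaller member. Zfp981 had 9715 and 2595 normalised reads in OE cells and 1969.6 and 1871 in control cells, with a log2 fold change of 1.39 (95% interval -0.39 to 3.16, adjusted p 0.192). Zfp980 had 7682 and 2155 in OE cells and 1618 and 1576 in control cells, with a log2 fold change of 1.35 (adjusted p 0.189). OE1 was several-fold above OE2 in both genes, and OE2 was only a little above the controls. With all libraries kept, DESeq2 called both (adjusted p 0.00571 for Zfp980 and 0.00482 for Zfp981). So did limma with a term for replicate number (0.0164 and 0.0148), which pairs libraries that share only a number. Both were missed by edgeR (0.116 for each) and voom (0.103 and 0.105). The log2 fold change was 0.43 for each without OE1, and 2.27 and 2.34 without OE2.

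Zfp985 and Zfp984 completed the called members of the block. Zfp985 had 3118 and 2197 normalised reads in OE cells and 669 and 732 in control cells, a log2 fold change of 1.90 (SE 0.23, adjusted p 0.017). Zfp984 had 4066 and 2341 in OE cells and 1249.6 and 1218 in control cells, a log2 fold change of 1.32 (adjusted p 0.0469). With all libraries kept, its limma call was lost with no filter (adjusted p 0.0561), TMM scaling (0.0508) and quantile normalisation (0.0622). In Zfp984, 54.5% of the 50-base stretches occur in other genes, and its exons overlap those of Gm20707 on the same strand. Zfp982, reported in mouse stem cells to help maintain the undifferentiated state, had 1219.7 and 272 in OE cells and 255 and 234 in control cells and was not called (adjusted p 0.285). Zfp933 had low values of 108 and 25.0 in OE cells and 29.5 and 15.9 in control cells.

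**Figure D2:**
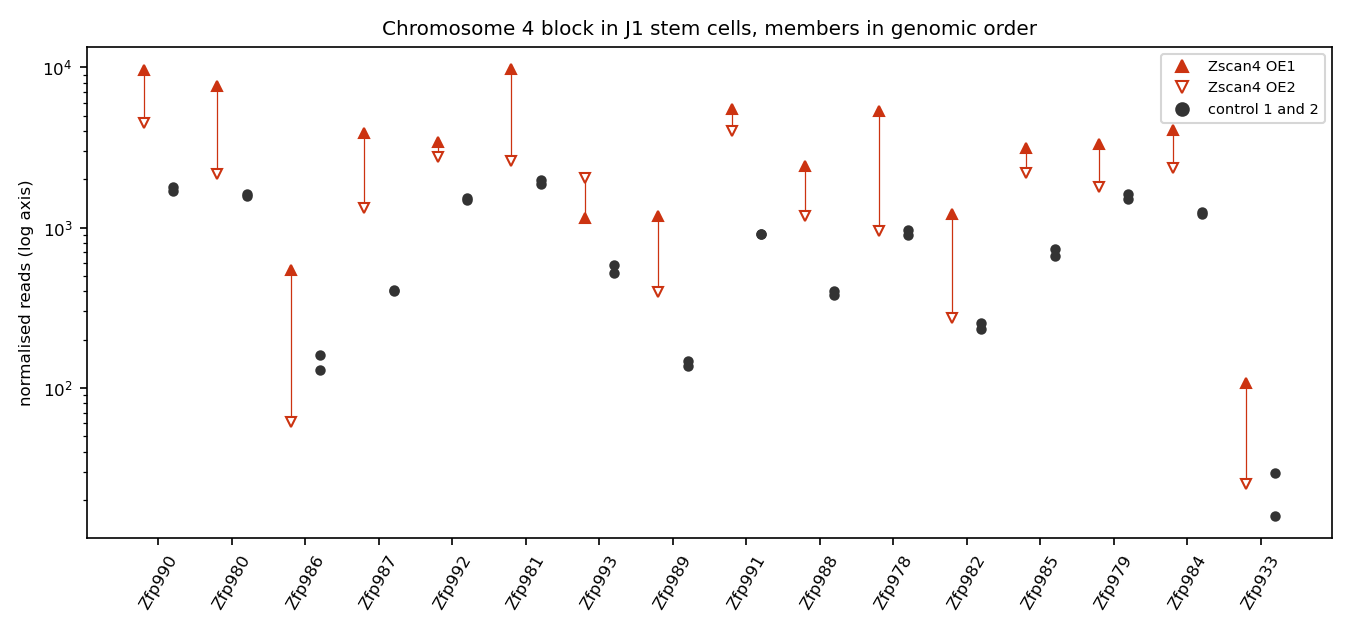
Normalised reads (log axis) of the 16 chromosome 4 members in genomic order, with OE1 and OE2 joined by a line and both control libraries beside them. OE1 lies above both controls in all 16 members, and OE2 lies above OE1 only in Zfp993.

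Promoter windows from RefSeq (GRCm38.p6, from 250 bases before to 50 after the annotated start) were found for 54 of the 64 symbols, as 62 windows. Those of 3 called chromosome 4 members are shown because their windows are near-copies, 89.2% to 96.2% identical over their best local alignments. Whether the windows have a part in the fold changes was not tested. The windows are chr4:147553027-147553326 for Zfp985, chr4:146097062-146097361 for Zfp987 and chr4:147305354-147305653 for Zfp988, all on the plus strand. Capitals mark the longest run of letters that all 3 share, which is 32 bases long.
Zfp985: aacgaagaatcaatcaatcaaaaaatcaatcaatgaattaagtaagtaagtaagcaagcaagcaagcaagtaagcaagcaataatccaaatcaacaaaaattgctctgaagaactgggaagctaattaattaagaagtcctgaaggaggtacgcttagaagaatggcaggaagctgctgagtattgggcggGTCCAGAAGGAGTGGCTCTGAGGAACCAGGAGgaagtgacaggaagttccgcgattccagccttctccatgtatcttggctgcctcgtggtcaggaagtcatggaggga
Zfp987: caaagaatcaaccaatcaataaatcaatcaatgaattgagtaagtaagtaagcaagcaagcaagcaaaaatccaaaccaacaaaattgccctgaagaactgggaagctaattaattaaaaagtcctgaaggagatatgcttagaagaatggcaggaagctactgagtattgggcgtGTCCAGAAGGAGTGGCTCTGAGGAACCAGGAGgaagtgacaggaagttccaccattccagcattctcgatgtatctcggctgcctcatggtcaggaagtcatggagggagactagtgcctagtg
Zfp988: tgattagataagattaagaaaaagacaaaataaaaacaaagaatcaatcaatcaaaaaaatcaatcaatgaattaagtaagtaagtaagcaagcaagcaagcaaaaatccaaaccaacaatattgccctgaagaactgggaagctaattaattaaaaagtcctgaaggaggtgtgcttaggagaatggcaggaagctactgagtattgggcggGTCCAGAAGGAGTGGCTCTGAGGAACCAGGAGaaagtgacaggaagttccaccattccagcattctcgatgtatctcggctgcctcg

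In the chromosome 7 block, 3 of 4 members were called higher and the median log2 fold change was 1.89, while 5 other tested genes of the region had a median of 0.43 with 1 called. Zfp936 had the largest log2 fold change of all members. It had 2769 and 2213 normalised reads in OE cells and 300.0 and 253 in control cells. The groups were far apart, with OE1 and OE2 close to each other, and the mean was 2491 ± 394 in OE cells and 276 ± 33.4 in control cells (SD, n = 2 each). That is 9.01-fold higher, a log2 fold change of 3.16 (SE 0.21, adjusted p 0.0116).

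Zfp975 had 1191 and 964 normalised reads in OE cells and 225 and 200.3 in control cells, a log2 fold change of 2.33 (SE 0.21, adjusted p 0.0123). Zfp976 had 939.9 and 563 in OE cells and 261 and 272 in control cells, a log2 fold change of 1.44 (SE 0.31, adjusted p 0.0391). Neither overlapped its controls. Zfp977 was the least expressed of the 4, with 146 and 21.5 in OE cells and 21.0 and 33.7 in control cells, and OE2 lay between the controls (adjusted p 0.471). The share of 50-base stretches found in other genes was 15.6% for Zfp936, 30.4% for Zfp975, 20.4% for Zfp976 and 8.47% for Zfp977.

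The 4 promoter windows of the block are shown because they too are near-copies, 87.4% to 92.9% identical over their best local alignments, while Zfp977 was not called. They lie at chr7:43177340-43177639 on the plus strand for Zfp936, where GENCODE starts a longer gene model upstream, and on the minus strand at chr7:42692669-42692968 for Zfp975, chr7:42642555-42642854 for Zfp976 and chr7:42592496-42592795 for Zfp977. Capitals mark the longest run common to all 4, which is 21 bases long.
Zfp936: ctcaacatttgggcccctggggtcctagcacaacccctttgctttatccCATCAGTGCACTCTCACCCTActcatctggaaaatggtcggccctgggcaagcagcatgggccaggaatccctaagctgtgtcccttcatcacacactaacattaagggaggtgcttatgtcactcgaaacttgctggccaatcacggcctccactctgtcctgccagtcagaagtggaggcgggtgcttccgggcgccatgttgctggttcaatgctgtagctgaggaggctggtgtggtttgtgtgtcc
Zfp975: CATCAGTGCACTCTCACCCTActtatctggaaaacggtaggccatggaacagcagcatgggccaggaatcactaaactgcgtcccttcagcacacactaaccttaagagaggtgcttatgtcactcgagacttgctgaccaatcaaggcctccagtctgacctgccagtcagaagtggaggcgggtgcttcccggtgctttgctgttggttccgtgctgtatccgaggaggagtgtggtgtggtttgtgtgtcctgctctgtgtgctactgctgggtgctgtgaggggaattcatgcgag
Zfp976: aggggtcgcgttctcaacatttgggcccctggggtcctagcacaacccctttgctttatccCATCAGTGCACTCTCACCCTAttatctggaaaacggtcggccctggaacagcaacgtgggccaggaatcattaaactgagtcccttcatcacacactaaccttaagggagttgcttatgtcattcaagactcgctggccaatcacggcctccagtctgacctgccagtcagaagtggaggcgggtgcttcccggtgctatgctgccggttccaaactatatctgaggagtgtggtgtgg
Zfp977: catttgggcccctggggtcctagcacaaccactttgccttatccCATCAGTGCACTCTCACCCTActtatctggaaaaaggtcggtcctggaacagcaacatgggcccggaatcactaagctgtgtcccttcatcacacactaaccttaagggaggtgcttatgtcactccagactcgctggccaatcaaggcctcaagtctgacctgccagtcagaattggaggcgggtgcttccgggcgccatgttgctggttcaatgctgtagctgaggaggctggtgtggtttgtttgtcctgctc

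Short motifs were counted on both strands of all 62 windows and set beside all 32851 windows of the RefSeq table. CCAAT, the CCAAT box, was in 48 of 62 windows (77.4%) from 41 members, against 37.4% of all windows, and in all 7 windows printed here. TATAAA, the TATA box, was in 0 of 62, against 13.6% of all windows. TGCACAC, a site reported for Zscan4, was in 1 of 62 (1.61%), that of Zfp982, against 4.40% of all windows. None of these motifs contains another, and near-copied windows are not independent of each other.

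Outside these 2 blocks 5 members were called higher, and several of them share little sequence with other genes. Zfp951, on chromosome 5, had 1186 and 848 normalised reads in OE cells and 157 and 198 in control cells. Both OE libraries were well above both controls, and the log2 fold change was 2.50 (SE 0.27, adjusted p 0.0145), with 1.63% of 50-base stretches shared. Zfp950, on chromosome 19, had 170.5 and 150.2 in OE cells and 42.9 and 33.7 in control cells, a log2 fold change of 2.05 (SE 0.29, adjusted p 0.0209), with 0.852% shared.

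Zfp961, on chromosome 8, is reported in mouse cells to bind retroviral sequence. It had 2996 and 2080.3 normalised reads in OE cells and 782 and 849 in control cells, without overlap, a log2 fold change of 1.61 (SE 0.24, adjusted p 0.0214). Its exons overlap those of Cyp4f18 on the opposite strand, and 2.83% of its stretches are shared. Zfp959, on chromosome 17 outside the block, had 189.6 and 144 in OE cells and 41.9 and 50.6 in control cells, a log2 fold change of 1.82 (SE 0.30, adjusted p 0.0256).

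Zfp948 was the only called member of the 10 in the chromosome 17 block, whose median log2 fold change was 0.56. It had 720.2 and 429 normalised reads in OE cells and 209.5 and 169 in control cells, a log2 fold change of 1.56 (SE 0.33, adjusted p 0.0392), and shares 0.115% of its stretches. The call was lost without OE1 (adjusted p 0.0546) and without either control, in a range of 0.000379 to 0.329 over 14 alternative fits. The log2 fold change of Zfp948 was 1.19 without OE1 and 1.93 without OE2. All 10 members of that block were higher in OE1 than in OE2.

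The pseudogene Zfp939 was the only member called lower. It had 27.3 and 20.3 normalised reads in OE cells and 68.6 and 67.4 in control cells. Both OE libraries lay far below both controls, and the fall was 2.86-fold, a log2 fold change of -1.49 (SE 0.34, adjusted p 0.0451). The call rests on few reads, 47 in OE and 144 in control libraries, and was lost in 6 of 14 alternative fits with adjusted p up to 0.352. The other 5 members with both OE libraries below both controls, named here after their values were seen, were Zfp941 (adjusted p 0.0933), Zfp931 (0.192), Zfp930 (0.213), Zfp943 (0.353) and Zfp940 (0.354).

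Members of the chromosome 2 block, 8 of which form a group linked by shared stretches, mostly had values on opposite sides of the controls in the 2 OE libraries. None of the 10 was called by limma, edgeR, DESeq2 or voom, with 0 at an unadjusted p under 0.05 in each. Of all 20888 genes, 6916 (voom) to 8657 (limma) had such a p. The median log2 fold change of the block was -0.41, where 35 other tested genes of the region had a median of 0.42 with 8 called higher and 1 lower. Limma with a term for replicate number, which pairs libraries that share only a number, called 1 of the 10 lower (Zfp965, adjusted p 0.0313) and 0 higher. In that fit 2 of the 10 had an unadjusted p under 0.05, against 8448 of all 20888 genes. OE1 lay above both controls in 7 members and below both in 2. OE2 lay above both in 1 and below both in 8, and the median log2 difference between OE1 and OE2 was 2.56. The share of all genes with such a split, or for a single OE library, is not given, so the split is not shown to be particular to the block. Both OE libraries lay above both controls in 0 of the 10 and below both in 1, against 34.2% and 34.6% of all genes.

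Zfp966, also named after its values were seen, had 593 and 23.8 normalised reads in OE cells and 150.5 and 163 in control cells, so the controls lay between OE1 and OE2. Zfp965 had 7.29 and 0 in OE cells and 43.8 and 2.81 in control cells, with a log2 fold change of -2.18 and a 95% interval of -6.58 to 2.22. Control 1 alone held most of its reads. From 23.3% to 100% of the stretches of the block's members occur in other genes.

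Other members with large fold changes and no call were Zfp935 and Zfp963. Zfp935 (the identifier that GENCODE vM21 names Gm49359) had 397 and 153 normalised reads in OE cells and 73.3 and 114 in control cells (adjusted p 0.134). Zfp963, on chromosome 8, had 102 and 58.4 in OE cells and 23.8 and 33.7 in control cells (adjusted p 0.0815). In both, OE2 lay above both controls and below OE1. Zfp932, known in mouse to bind endogenous retroviruses, had 292 and 184 in OE cells and 163 and 162 in control cells, with a log2 fold change of 0.51 (95% interval -0.32 to 1.33, adjusted p 0.281).

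Genes of the silencing machinery that KRAB zinc finger proteins recruit were also measured. Of 20 measured genes of a list of 22, 4 (20%) were higher and 2 (10%) lower in OE cells, against 11.7% and 11.4% of all genes, with a median log2 fold change of 0.14. Trim28, the scaffold, had a log2 fold change of 1.45 (adjusted p 0.0248), Setdb1, a histone H3 lysine 9 methyltransferase, of 0.83 (adjusted p 0.0439), Hdac1, a histone deacetylase, of 0.98 (adjusted p 0.0225) and Smarcad1, a chromatin remodeller, of 1.73 (adjusted p 0.0401). Chd3, a remodeller of a deacetylase complex, fell by 1.66 on the log2 scale (adjusted p 0.0137) and Suv39h1, another lysine 9 methyltransferase, fell by 0.71 (adjusted p 0.0427). The number of partners called depended on which library was left out, and such a fit leaves 1 library in a group.

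In Zscan4 RNAi embryos, 7 members were lower than in control embryos and 1 (Zfp951) was higher, out of 52 tested (limma, adjusted p under 0.05 over all 16417 genes tested). The background was 12% of all genes called lower and 6.13% called higher (18.2% in all), against 13.5% and 1.92% of the tested members, so the share called lower was near that of all genes. The median log2 fold change, RNAi minus control, was -0.16 over the tested members and -0.03 over all genes. In 2 members the RNAi libraries all lay below all controls and in 0 all lay above, where all genes gave 4.28% and 3.05%. Control 5 was the lowest control in 5 of the 7 members called lower. Without it, 9 members were called lower and 3 higher. Without RNAi3, RNAi4, control 1, control 3 or control 4, 0 members were called higher, and without RNAi5 it was 2.

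Reads were few in embryos. Of the 64 members, 30 had a read in every library, 12 were not tested, and Zfp965 and Zfp967 had none in any library. Zfp971, a chromosome 2 member named after its values were seen, had 0 reads in all 5 controls and reads in 4 of 6 RNAi libraries, at most 11.7 normalised reads. Summed over all members, RNAi libraries held 1568 to 2084 normalised reads and controls 1634 to 2814, so the ranges overlapped.

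**Figure D3:**
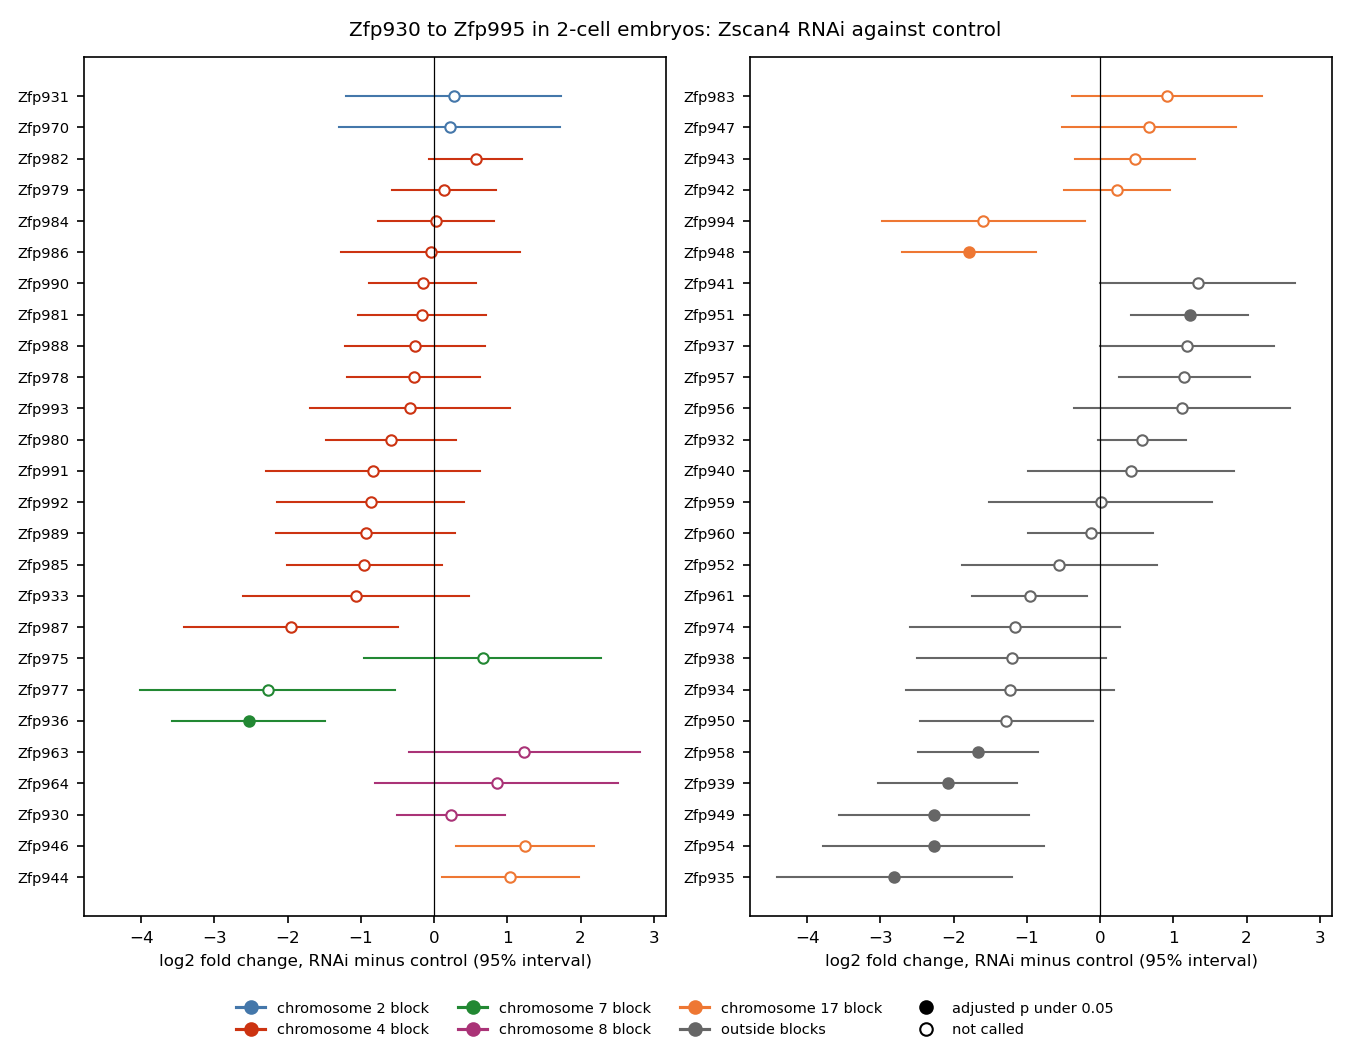
Log2 fold change of each tested member in 2-cell embryos, Zscan4 RNAi minus control, with its 95% interval, coloured by genomic block; filled points have an adjusted p under 0.05. The 7 filled points left of 0 are spread over the chromosome 7 and 17 blocks and genes outside blocks, and the 16 chromosome 4 members are all open.

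Zfp936 was the most abundant member per kilobase in control embryos, at 134 normalised reads per kilobase, and the one with the smallest adjusted p. RNAi libraries held 40.4 at the lowest, 51.6 at the median and 126 at the highest, and controls held 494, 654, 564, 427 and 53.8. The first 4 controls lay far above every RNAi library, and control 5 lay within the range of the RNAi libraries. The mean was 62.1 ± 32.5 in RNAi embryos (SD, n = 6) and 439 ± 231 in control embryos (SD, n = 5), 7.06-fold lower, a log2 fold change of -2.53 (SE 0.50, adjusted p 0.00409). The call held in all 20 alternative fits, with adjusted p from 5.38e-06 to 0.0172.

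The pseudogene Zfp939 had a lowest, median and highest RNAi value of 6.07, 17.5 and 39.4 normalised reads, and controls of 112, 60.5, 77.9, 87.8 and 37.1. Control 5 was again the lowest control, below the highest RNAi library. Its log2 fold change was -2.08 (SE 0.46, adjusted p 0.00579).

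Zfp958, on chromosome 8, had RNAi values of 17.0, 35.8 and 67.3 (lowest, median, highest) and controls of 88.1, 143, 191, 82.0 and 66.5. The groups overlapped only through control 5 and the highest RNAi library, and the log2 fold change was -1.67 (SE 0.39, adjusted p 0.00813).

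Zfp948 and Zfp949 were the 2 members without overlap. Zfp948 had RNAi values of 6.07, 19.2 and 26.2 and controls of 43.6, 76.7, 61.2, 110.0 and 34.2, a log2 fold change of -1.79 (SE 0.44, adjusted p 0.00992). Zfp949, on chromosome 9 and with 0% of its stretches shared, had RNAi values of 0.868, 16.8 and 39.4 and controls of 51.2, 84.8, 52.9, 65.6 and 44.0, a log2 fold change of -2.26 (SE 0.62, adjusted p 0.0176). In Zfp949 the call was lost without control 2 (adjusted p 0.0516) and with edgeR (0.0629), the highest of 20 alternative fits, whose lowest was 0.00516.

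Zfp935 and Zfp954 were called on fewer reads. The embryo table has 1 entry for the symbol Zfp935, and which of its 2 identifiers was counted is not known. All (100%) of the 50-base stretches of its annotated transcripts occur in other genes, so its value is uncertain between near-copies. Zfp935 had no read in 3 RNAi libraries and 19.8 normalised reads at most, against controls of 12.6, 33.9, 29.2, 18.7 and 16.6, a log2 fold change of -2.81 (SE 0.77, adjusted p 0.0173). Zfp954, on chromosome 7 outside the block, had RNAi values of 0, 15.0 and 35.3 and controls of 32.7, 22.9, 100.2, 65.6 and 61.6, a log2 fold change of -2.27 (SE 0.72, adjusted p 0.0343). Both sets of values overlapped between groups. The call for Zfp935 was lost in 3 of 20 alternative fits, among them the one without control 2 (adjusted p 0.0511, in a range of 0.00424 to 0.122), and that for Zfp954 in 6, in a range of 0.0134 to 0.0951. Those 6 included the fits without RNAi6 (adjusted p 0.0722), control 3 (0.0951), control 4 (0.0809) or control 5 (0.0546).

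Zfp951 rose in RNAi embryos. Its RNAi values were 163, 302 and 369 at the lowest, median and highest, and its controls were 47.8, 202, 131, 69.1 and 244. In 4 of 6 RNAi libraries the value lay above all controls, and control 5 and control 2 were the highest controls. The mean was 283 ± 76.0 in RNAi embryos (SD, n = 6) and 139 ± 84.2 in control embryos (SD, n = 5), a log2 fold change of 1.22 (SE 0.38, adjusted p 0.0317). The call was lost in 8 of 20 alternative fits, with adjusted p from 0.0074 to 0.0996. The calls lost included those without RNAi3, RNAi4, RNAi5, control 1, control 3 and control 4.

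The 16 chromosome 4 members were all tested in embryos and none was called by limma, edgeR, DESeq2 or voom, with 1 to 2 at an unadjusted p under 0.05. Of all genes, 5431 of 16417 had such a p by limma, and 4839 (edgeR) to 5913 (voom) over these fits. The members' share was thus below that of all genes. Of the 16 members, 3 had a positive log2 fold change and the median was -0.30. The 18 other tested genes of the region had a median of -0.39, with 1 higher and 2 lower. Zfp982 was the most abundant of the 16 members, with RNAi values of 146, 199 and 282 and controls of 187, 176, 150.3, 87.8 and 106, which overlapped (log2 fold change 0.57, 95% interval -0.07 to 1.20, adjusted p 0.203). Zfp987 had the largest change of the block, with RNAi values of 0, 6.42 and 18.0 and controls of 16.8, 32.5, 13.9, 32.8 and 8.80. It missed the threshold (log2 fold change -1.95, adjusted p 0.0575), and passed in 4 of 20 alternative fits, with adjusted p from 0.0253 to 0.149.

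Control embryos ordered the members differently from control stem cells. Per kilobase, Zfp936 (134 normalised reads per kilobase), Zfp982 (94.9), Zfp958 (48.2), Zfp939 (30.3) and Zfp951 (29.4) led in embryos. Among neighbours in that order, only Zfp982 and Zfp958 differed by more than the SD of the higher gene over its controls. Chromosome 4 members, which led in stem cells, had a median of 9.10 per kilobase in control embryos, against 2.93 over all members.

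Zfp957 and Zfp946 had higher RNAi means without a call. Zfp957, on chromosome 14 and nearly without reads in stem cells, had RNAi values of 47.8, 125 and 229 and controls of 26.8, 48.0, 40.4, 51.5 and 142 (log2 fold change 1.15, adjusted p 0.0657). Control 5 was the highest control, 3 of the 5 controls lay within the range of the RNAi libraries, and without control 5 the adjusted p was 0.013, in a range of 0.013 to 0.168 over 20 alternative fits. Zfp946, in the chromosome 17 block, had RNAi values of 14.4, 30.1 and 50.8 and controls of 14.3, 8.11, 8.35, 9.37 and 23.5 (log2 fold change 1.24, adjusted p 0.0596, and 0.028 without control 5 in a range of 0.0247 to 0.132).

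Members with lower RNAi means and no call included Zfp977, Zfp950, Zfp934 and Zfp961. Zfp977 had RNAi values of 0, 1.51 and 5.80 and controls of 6.71, 49.4, 15.3, 36.3 and 0, a log2 fold change of -2.27 with an adjusted p of 0.0633 that was 0.00447 without control 5, in a range of 0.00216 to 0.185. Zfp961 had RNAi values of 41.2, 46.0 and 97.4 and controls of 89.7, 134, 174, 158 and 49.9 (log2 fold change -0.96, adjusted p 0.079, and 0.0186 without control 5 in a range of 0.0186 to 0.194). In both, control 5 lay within the range of the RNAi libraries and the other controls mostly above it. Zfp950 had a log2 fold change of -1.28 (adjusted p 0.122) and Zfp934 of -1.23 (adjusted p 0.217). Zfp932 had RNAi values of 89.3, 105 and 132 and controls of 92.2, 63.4, 87.7, 50.3 and 70.4 (log2 fold change 0.57, adjusted p 0.173).

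All 22 silencing partners were measured in embryos, with 5 lower (22.7%, against 12% of all genes), 1 higher (4.55%, against 6.13%) and a median log2 fold change of -0.59. Trim28 averaged 40.3 ± 21.2 normalised reads in RNAi embryos (SD, n = 6) and 114 ± 34.9 in control embryos (SD, n = 5), a log2 fold change of -1.60 (adjusted p 0.0104). Log2 fold changes were -2.55 for Hdac1, -2.26 for Atf7ip2 (a relative of a Setdb1 cofactor), -2.13 for Cbx3 (a heterochromatin protein) and -1.60 for Trim33 (a relative of Trim28), with adjusted p from 0.00508 to 0.0255. Cbx1, another heterochromatin protein, rose, with a log2 fold change of 1.08 (adjusted p 0.0277), and was not called without RNAi3, RNAi6, control 1, control 2 or control 4. The groups did not overlap for Trim28 and Cbx3 and overlapped for the other called partners. Control 5 was the lowest control of Hdac1 (97.8, RNAi 5.80 to 130), Atf7ip2 (16.6, RNAi 2.61 to 75.4) and Trim33 (40.1, RNAi 14.4 to 48.4).

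The comparisons in stem cells and in embryos share no library, and 51 members were tested in both. Of these, 26 had a positive log2 fold change in OE cells and a negative one in RNAi embryos, 17 were positive in both, 3 negative in both and 5 negative in OE cells and positive in RNAi embryos. Of 13072 genes of any kind tested in both, 28.8% were positive in OE cells and negative in RNAi embryos, against 51.0% of the members, and 22.4% were positive in both, against 33.3%. A larger share of the members than of all genes was positive in OE cells, which raises both shares. The 51.0% is therefore no measure of opposite responses. The embryo signs of most members came without a call. Of 15 members called higher in OE cells and tested in embryos, 2 (13.3%) were called lower in RNAi embryos (Zfp936 and Zfp948) and 1 (6.67%) higher (Zfp951). Of all 1638 genes called higher in OE cells and tested in embryos, 19.9% were called lower and 5.07% higher in RNAi embryos, so the members' shares were near those of all genes. The pairing was by symbol, and for Zfp935 it is not known that both tables count the same gene model. Zfp939 was called lower in both. For Zfp951 and Zfp939 the direction was therefore the same under overexpression and under knockdown.

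**Figure D4:**
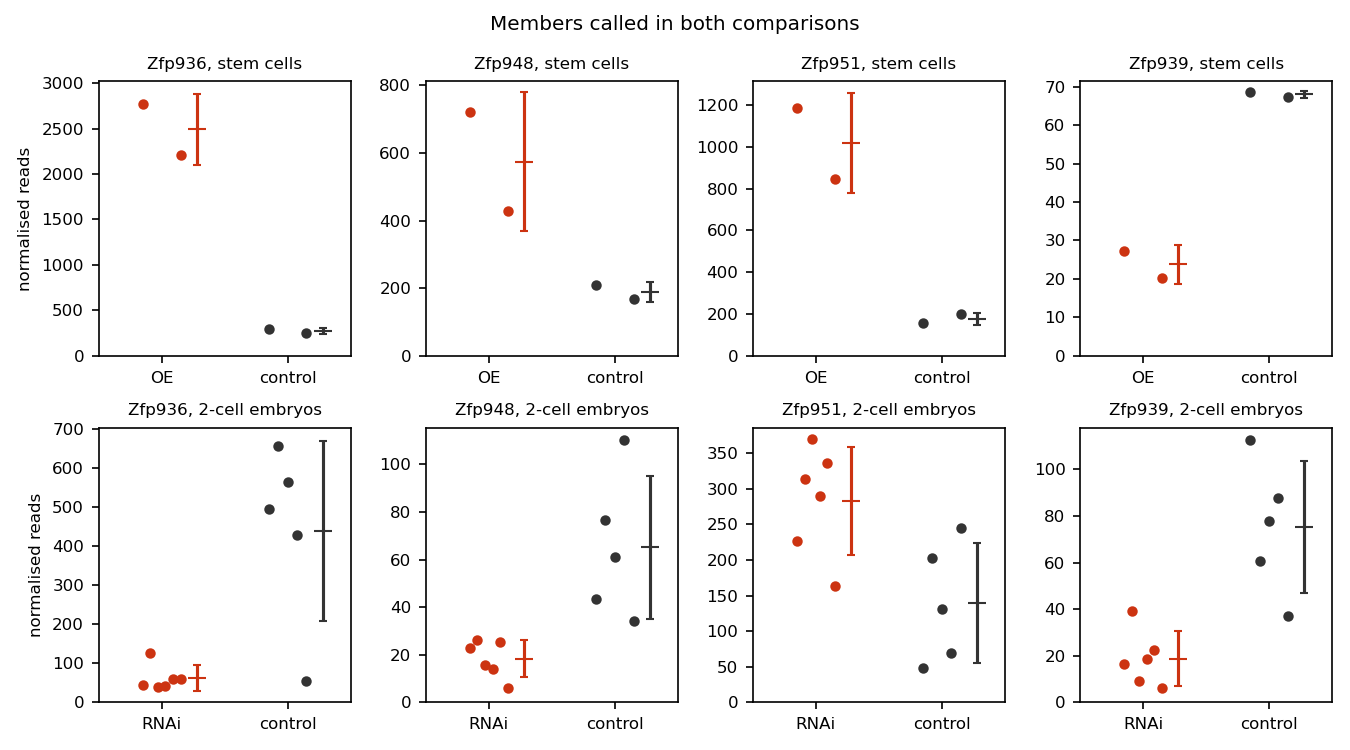
Normalised reads per library of the 4 members called in both comparisons, in stem cells (top, OE left of control) and 2-cell embryos (bottom, RNAi left of control); bars beside the points give the mean and SD. In embryos, control 5 is the low control of Zfp936, at 53.8 normalised reads against 427 to 654 in the other controls.

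**Figure D5:**
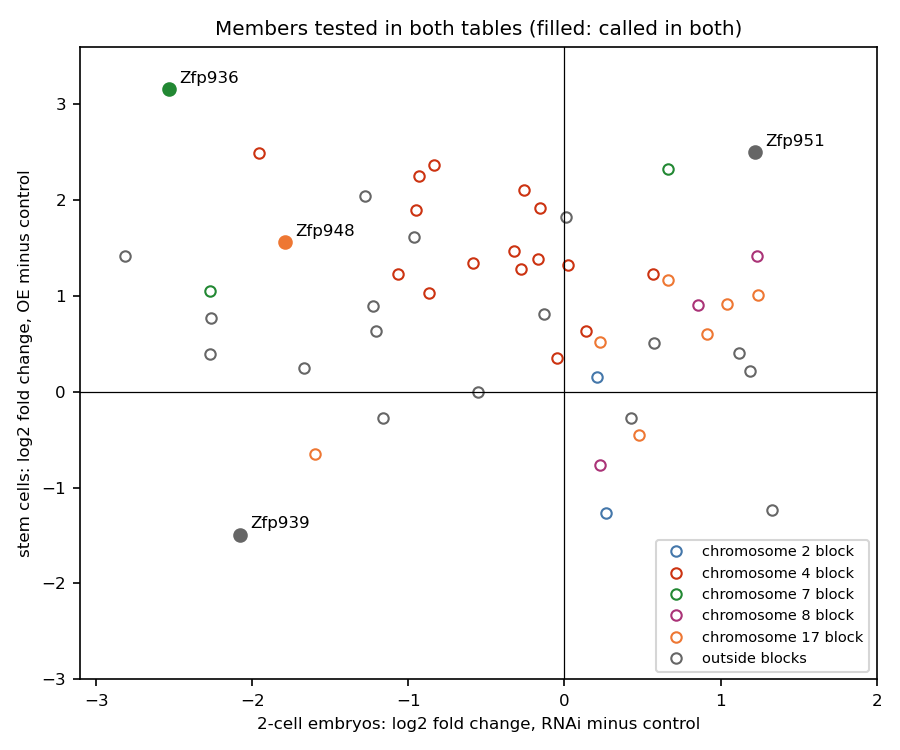
Log2 fold changes of the 51 members tested in both tables, RNAi minus control in embryos on the horizontal axis and OE minus control in stem cells on the vertical axis, coloured by genomic block; filled points were called in both. Chromosome 4 members all lie above 0 on the vertical axis, and 13 of the 16 lie left of 0 on the horizontal axis.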

How the data were processed

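Titles call the 4 stem cell and 11 embryo libraries RNA-Seq, while other labels give genomic DNA as the molecule, a genomic library source and a kit made for DNA, and the embryos carry the growth protocol of the stem cells; the values were taken as messenger RNA from the titles and the gene reads. The submitters' processing notes name Trimmomatic, HISAT2, featureCounts and mm10; no version or setting, and no rule for reads matching more than 1 gene, is given in the sources used here. The deposited values are a signal: gene reads that the authors divided by 1 size factor per library. Whole reads were recovered in 100% of values within 0.01 read. Embryo controls carry the numbers of the table's columns, 1 to 5.

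A gene was tested where 2 or more stem cell libraries, or 5 or more embryo libraries, reached a value of 1, by fitting log2(value + 1) with limma 3.58.1 (trend) in R 4.3.3, each table alone, with Benjamini-Hochberg adjustment over all genes and a threshold of 0.05. Fold changes on this scale understate low genes. The model was tested on simulated data. On the recovered reads, edgeR 4.0.16 called 4510 of 20888 genes in stem cells and 2169 of 16417 in embryos, against 4843 and 2983 by limma. Other alternatives were DESeq2 1.42.0, voom, other pseudocounts, filters and scalings, a replicate block, and each library left out. No 2 libraries agreed within sampling noise (mean chi-square per gene at least 2.69).

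Named members were up to 12 called per direction and the 5 with the highest mean over all libraries, not per kilobase. The 5 largest changes not called with a mean of at least 10 were also named. So were those called in both comparisons, Zfp932 and Zfp961. Other named members, chiefly the remaining called ones and those completing a block or a group linked by shared stretches, were named after their values were seen. The members, lists and tests were chosen with earlier results of these data known. Shared 50-base stretches, exons and blocks were computed with Python 3.11.15 from GENCODE vM21, and promoter alignments with Biopython 1.88.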

Additional observations from a re-analysis of the deposited data

Results flagged for a closer look

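In 58 groups of embryo libraries examined for the named members, 7 held a library far from all others of its group. For normally distributed values about 1 in 20 would do so. Read counts need not follow that rate, least of all low values with zeros, such as those of Zfp976. In Zfp936, RNAi2 had 126 normalised reads and the next highest RNAi library 59.9. In Zfp977, RNAi4 had 5.80 and the next 1.74, and in Zfp991, RNAi1 had 9.61 and the next 1.80. In Zfp957, control 5 had 142 and the next highest control 51.5. In Zfp980, control 1 had 53.7 and the next 30.6, and in Zfp988, control 2 had 71.6 and the next 26.0. In Zfp976, control 3 had 4.17 and the other controls were at 0.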

How the results depend on the processing

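Stem cell members called higher (16) numbered 13 to 23 in settings that kept all libraries and 0 to 34 with a library left out. The 1 member called lower became 0 with no filter, 0 with quantile normalisation and 0 with voom. The 4 partners called higher became 2 with quantile normalisation and 0 to 11 with a library left out, and the 2 called lower became 1 with no filter or voom and 0 to 12 with a library left out. Other Zfp genes called higher (57) ran from 0 to 116 and those called lower (16) from 0 to 95 with a library left out, with 28 lower by DESeq2. Stem cell replicate numbers share only a number (correlation of the deviations of same-numbered libraries -0.01). The replicate block called 22 members higher and 3 lower, 1 partner lower, 33 other Zfp genes lower and 6024 genes in all.

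The 1 embryo member called higher became 0 with edgeR, 2 with a mean of at least 10, 2 with TMM, 3 with quantile normalisation, 4 with voom and 0 to 3 with a library left out. Members called lower (7) ran from 5 to 10. The 1 partner called higher became 2 with voom and 0 to 1 with a library left out. Other Zfp genes called higher (14) ran from 6 to 19 and lower (30) from 18 to 35 with a library left out. The embryo median of -0.16 became 0.09 with quantile normalisation, which moved the median of all genes to 0.14. No paired analysis was possible because embryo control columns are numbered 1 to 5 and the labels differ. The cause of these changes was not tested. Of the stem cell members named, Zfp966 (-0.38) became 0.98 by edgeR, 0.98 by DESeq2 and -2.67 to 1.91 with a library left out, Zfp986 (0.35) ran from -1.22 to 1.92 and Zfp977 (1.06) from -0.30 to 2.41 with a library left out; no other named member changed sign. Low embryo depth limits members with few reads.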
